A study of Mus musculus with 8 samples.

Results

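Genes of the hypoxia response and of glycolysis, namely Hif1a, Slc2a1, Hk2, Pfkl, Pgk1, Eno1, Ldha, Pdk1, Bnip3 and Vegfa, were followed in mouse hematopoietic stem cells (HSCs) to ask whether hemolytic anemia left a hypoxia mark in these cells. They were chosen by symbol, and 10 of 10 were found among the 15142 genes listed for every group. All mice were wild type C57BL/6, and the study used mice of 8 to 12 weeks and both sexes. Control mice received PBS by the labels, while the study's text calls its control mice untreated, and their bone marrow HSCs formed the control BM group (bone marrow, 3 libraries). Phenylhydrazine (PHZ), which destroys red blood cells, was injected into the peritoneum at 60 mg/kg 2 times, and 3 days after the last injection HSCs were taken from the marrow (group PHZ BM, 3 libraries) and the spleen (group PHZ SP, 2 libraries). The sort kept lineage-negative Sca-1+ c-kit+ cells that were also CD150+ and CD48-/low. HSCs from the spleens of control mice were not analysed here, and tissue therefore changed together with treatment between PHZ SP and control BM. The labels do not say whether each library came from a separate mouse or a pool, and the study counts independent animals in its figures but prints no such number for these libraries, so p-values measure the spread between libraries, which may be technical.

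The response to low oxygen is run by hypoxia-inducible factors (HIFs), each a pair of an oxygen-regulated alpha subunit, such as HIF-1α from Hif1a, and a constant beta subunit, Arnt. When oxygen is plentiful, prolyl hydroxylases of the Egln family mark the alpha subunit, Vhl binds it and it is degraded, so most of this control acts on the protein and not on Hif1a mRNA. When oxygen is scarce, HIF enters the nucleus and raises genes for glucose uptake, glycolysis, blood vessel growth and the removal of mitochondria. Bone marrow HSCs are known for their reliance on glycolysis and for HIF activity in the low oxygen of the marrow.

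HIF binds a 5-letter core, ACGTG or GCGTG, in the promoters and enhancers of its targets. Both strands of the RefSeq promoters (build GRCm38, 250 bases before to 50 bases after a transcript start of each gene) were searched for these letters, and CACGTG was counted on both strands because ACGTG overlaps itself there. A core was found in 13 of the 15 promoters of the 10 genes (86.7%), and in at least 1 promoter of 10 of 10 genes (67.9% of the genes tested and 46.7% of all genes with a promoter listed). Of the 11479 promoters of genes tested 62.4% held a core, as did 43.8% of the 32851 promoters of all genes, and the median number of CpG pairs in these 3 sets was 24, 20 and 7. The match describes the letters and not a bound site. The promoters of the 4 genes on which most of the results turn are printed 5′ to 3′ in the direction of the gene, with the core in capitals (CACGT and CACGC are the core on the other strand). They are Slc2a1, which had the smallest p-value of the 10 genes (chr4:119108495-119108794, plus strand), Pgk1, whose call depended on a single library (chrX:106186850-106187149, plus strand), and 2 genes outside the 10 that changed, Ddit4 (chr10:59951721-59952020, minus strand) and Pfkfb4 (chr9:108991652-108991951, plus strand, a transcript start that lies inside the annotated gene).
Slc2a1: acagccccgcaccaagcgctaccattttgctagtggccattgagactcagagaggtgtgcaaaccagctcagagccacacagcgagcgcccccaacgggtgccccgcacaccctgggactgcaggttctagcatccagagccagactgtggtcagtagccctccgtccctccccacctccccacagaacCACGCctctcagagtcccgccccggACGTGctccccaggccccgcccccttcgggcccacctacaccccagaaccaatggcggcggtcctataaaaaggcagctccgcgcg
Pgk1: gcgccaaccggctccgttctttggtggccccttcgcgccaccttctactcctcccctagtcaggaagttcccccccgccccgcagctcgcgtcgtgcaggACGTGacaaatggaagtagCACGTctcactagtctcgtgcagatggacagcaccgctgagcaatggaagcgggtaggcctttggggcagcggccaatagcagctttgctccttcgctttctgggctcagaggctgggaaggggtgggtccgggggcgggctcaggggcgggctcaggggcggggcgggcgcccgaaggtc
Ddit4: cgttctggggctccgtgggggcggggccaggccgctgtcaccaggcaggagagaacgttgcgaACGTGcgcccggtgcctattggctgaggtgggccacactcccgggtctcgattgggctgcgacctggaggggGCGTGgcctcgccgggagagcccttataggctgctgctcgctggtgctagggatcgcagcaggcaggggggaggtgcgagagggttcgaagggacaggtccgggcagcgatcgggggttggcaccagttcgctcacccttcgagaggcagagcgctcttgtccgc
Pfkfb4: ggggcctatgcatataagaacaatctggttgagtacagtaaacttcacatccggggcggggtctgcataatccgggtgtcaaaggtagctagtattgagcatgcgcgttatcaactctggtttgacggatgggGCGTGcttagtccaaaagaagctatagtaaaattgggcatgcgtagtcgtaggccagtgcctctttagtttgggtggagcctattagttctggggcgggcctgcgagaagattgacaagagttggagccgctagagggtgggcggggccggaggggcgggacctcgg
Slc2a1 and Ddit4 each held both forms of the core, Pgk1 held ACGTG at 2 places, and Pfkfb4 held only GCGTG.

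Expression is in FPKM, reads or read pairs per kilobase of a gene after scaling for depth, so that levels can be compared between genes. The libraries held 8216626 to 13201359 reads, of which 43.3% to 48.6% belonged to Rn45s, a ribosomal RNA precursor, and between 11410 and 12271 genes reached 10 reads. A list of 10 HSC genes (among them Kit, Slamf1, Procr and Mecom) summed to 434 to 584 FPKM in all 8 libraries, and none of its genes was at 0 in a whole group. In control BM, Ldha was the highest of the 10 genes at 133 ± 15.6 FPKM (SD, n = 3). Pfkl, Eno1 and Pgk1 followed with means of 26.5, 26.2 and 23.9 FPKM and overlapping ranges. Slc2a1 (11.8 FPKM) and Pdk1 (8.63 FPKM) came next, each apart from its neighbours, before Hif1a (7.35 FPKM) and Bnip3 (6.10 FPKM), whose ranges overlapped. Hk2 was at 2.41 FPKM, and Vegfa was last at 0.139 FPKM. Ldha also led in PHZ BM and PHZ SP, and Hk2 and Vegfa were also last there.

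None of the 9 genes that could be tested passed the test in any of the 3 comparisons. The test was limma on log2(FPKM + 1), with all 8 libraries in a single fit and Benjamini-Hochberg adjustment over the 11347 genes that reached 1 FPKM in at least 2 libraries, at a threshold of 0.05. Vegfa did not reach that level. Between PHZ BM and control BM, 0 of 9 genes passed where 2.74% of all genes tested did. The corresponding counts were 0 of 9 beside 0.758% for PHZ SP against control BM, and 0 of 9 beside 0.978% for PHZ SP against PHZ BM. At an unadjusted p below 0.05 the counts were 2, 0 and 0 of 9, beside 16.6%, 15.8% and 13.5% of all genes. With limma-voom on reads worked back from the FPKM values the counts of genes passing were also 0 in each comparison. The median log2 fold change of the 9 genes was 0.15, 0.04 and -0.16 in the 3 comparisons, where all genes tested had medians of 0.01, -0.001 and -0.02. In these bulk libraries fewer cells that express a gene and less RNA per cell cannot be told apart.

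**Figure D1:**
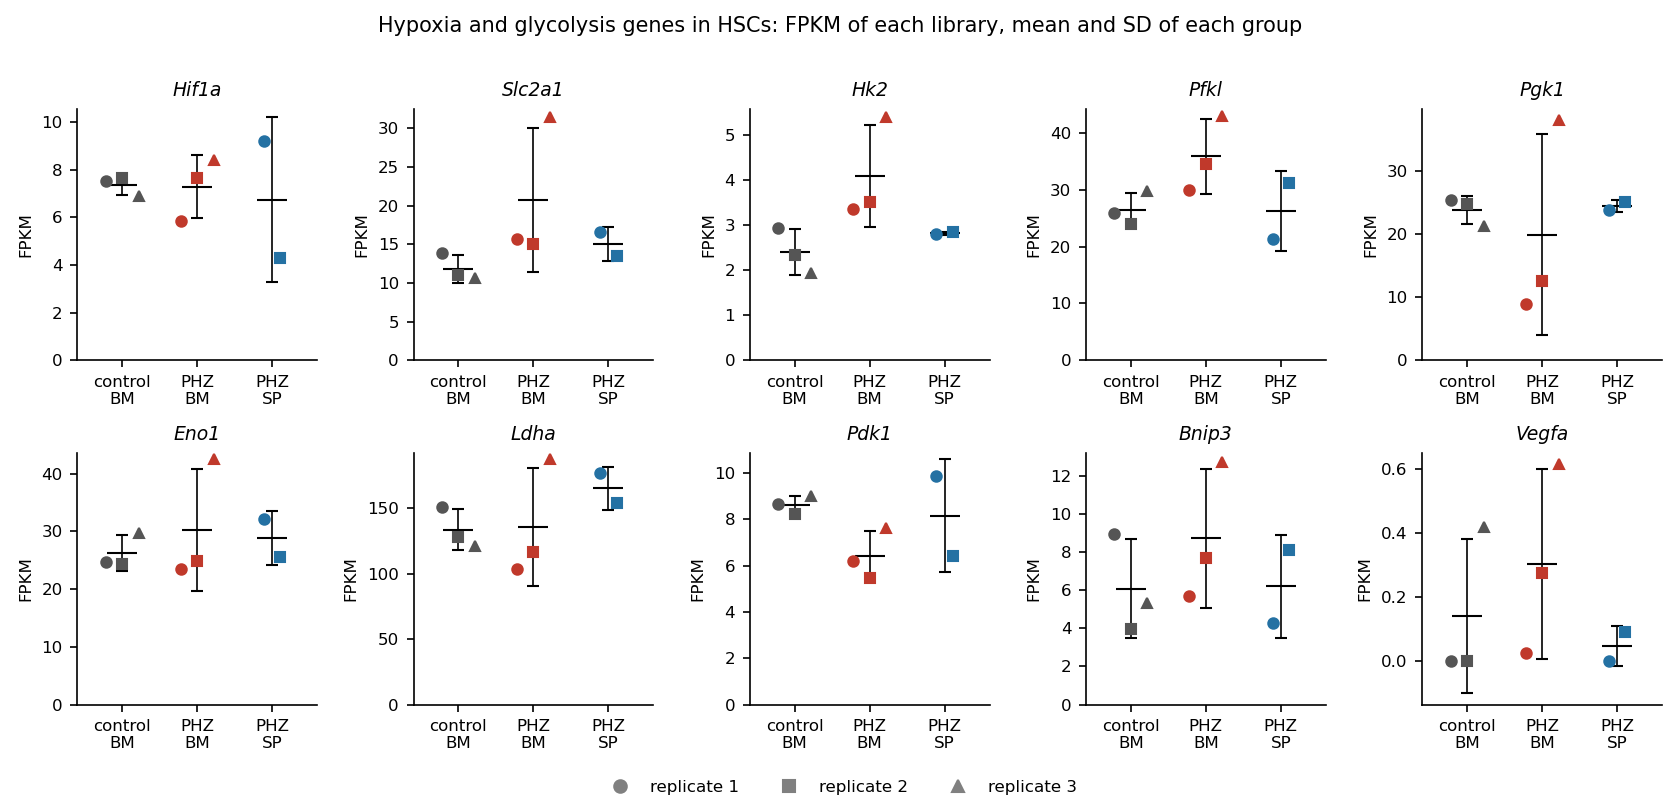
FPKM of the 10 genes in each of the 8 libraries (points, shape by replicate number), with the group mean (horizontal bar) and SD (vertical bar) for control BM, PHZ BM and PHZ SP; each panel has its own linear axis. PHZ BM library 3 (red triangle) was the highest of all 8 libraries for 7 of the 9 tested genes, and for Pgk1 it lay at 38.2 FPKM where the other PHZ BM libraries lay at 8.88 and 12.7.

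Hif1a, the oxygen-regulated alpha subunit (Entrez 15251, chr12:73901324-73947554), showed no difference that the test could call. Its level was 7.51, 7.63 and 6.90 FPKM in the control BM libraries, 5.84, 7.64 and 8.41 in PHZ BM, and 9.19 and 4.29 in PHZ SP. The 2 spleen libraries were the highest and the lowest of all 8, so the groups overlapped. PHZ BM over control BM had a log2 fold change of -0.02 (SE 0.26, 95% interval -0.60 to 0.55, limma adjusted p = 0.980), and PHZ SP over control BM one of -0.18 (-0.83 to 0.46, limma adjusted p = 0.803).

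Slc2a1 encodes GLUT1, the transporter that brings glucose into the cell (Entrez 20525, chr4:119108745-119137330), and its promoter is among those printed above. It was at 13.9, 11.0 and 10.6 FPKM in control BM, at 15.7, 15.0 and 31.5 in PHZ BM, and at 16.6 and 13.5 in PHZ SP. All PHZ BM libraries lay above all controls, and 1 of them lay far above the rest, whereas PHZ SP overlapped both groups. PHZ BM exceeded control BM by 0.69 on the log2 scale (SE 0.27, 95% interval 0.10 to 1.27), with an unadjusted p of 0.025 by limma and an adjusted p of 0.215. Without PHZ BM library 3 it was 0.36 (limma adjusted p = 0.473). PHZ SP was 0.32 above control BM (-0.33 to 0.98, limma adjusted p = 0.640).

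Hk2, a hexokinase that phosphorylates glucose on entry (Entrez 15277, chr6:82725025-82774454), followed the same order. Its level was 2.95, 2.35 and 1.94 FPKM in control BM, 3.37, 3.51 and 5.42 in PHZ BM, and 2.80 and 2.85 in PHZ SP. The PHZ BM libraries lay above all libraries of both other groups. Over control BM the log2 fold change was 0.57 (SE 0.25, 95% interval 0.02 to 1.11), with an unadjusted p of 0.043 by limma and an adjusted p of 0.279. PHZ SP lay 0.39 below PHZ BM on this log2 scale (log2 fold change -0.39, -1.0 to 0.22, limma adjusted p = 0.584).

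Pfkl is the liver-type subunit of phosphofructokinase, which commits sugar to glycolysis (Entrez 18641, chr10:77986947-78009807). It was at 25.9, 23.9 and 29.7 FPKM in control BM, at 29.9, 34.6 and 43.0 in PHZ BM, and at 21.3 and 31.2 in PHZ SP. The marrow groups did not overlap, by the narrow gap between 29.7 and 29.9 FPKM, and PHZ SP overlapped both. On the log2 scale PHZ BM was 0.41 above control BM (SE 0.20, 95% interval -0.02 to 0.84, limma adjusted p = 0.322). In total 3 of 9 genes (Slc2a1, Hk2 and Pfkl) were higher in PHZ BM than in control BM with no overlap, as were 12.3% of all genes tested, and 1 of 9 (Pdk1) was lower with no overlap, as were 11.7%.

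Pgk1, the phosphoglycerate kinase that makes the first ATP of glycolysis (Entrez 18655, chrX:106187100-106203699), spread widely among the PHZ BM libraries. Control BM lay at 25.4, 24.8 and 21.4 FPKM and PHZ SP at 23.8 and 25.2, while PHZ BM lay at 8.88, 12.7 and 38.2 FPKM. These PHZ BM values rested on 209, 267 and 1109 reads, which carry no molecular identifiers. Both the lowest and the highest values of all 8 libraries thus came from PHZ BM. With all libraries the log2 fold change of PHZ BM over control BM was -0.51 (SE 0.39, 95% interval -1.37 to 0.35, limma adjusted p = 0.559). Without PHZ BM library 3, Pgk1 passed the test as lower in PHZ BM than in control BM (log2 fold change -1.09, limma adjusted p = 0.0217) and as higher in PHZ SP than in PHZ BM (1.13, limma adjusted p = 0.0444), so that 1 of 9 genes was called in each of these comparisons. No other single library, when left out, gave a call for any of the 9 genes.

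Eno1, the main enolase of most tissues (Entrez 13806, chr4:150236708-150248879), was at 24.6, 24.3 and 29.8 FPKM in control BM, at 23.5, 24.9 and 42.5 in PHZ BM, and at 32.1 and 25.5 in PHZ SP. All 3 groups overlapped. Over control BM, the log2 fold change was 0.15 for PHZ BM (95% interval -0.34 to 0.65) and 0.13 for PHZ SP (-0.43 to 0.68), with limma adjusted p-values of 0.790 and 0.852. Eno1b is a near-identical copy of Eno1, and Pgk1 and Ldha also have processed copies in the genome. How reads that match several copies were counted is not given in the sources used here, so the levels of these 3 genes are uncertain to that extent.

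Ldha, the lactate dehydrogenase subunit that favours turning pyruvate into lactate (Entrez 16828, chr7:46842274-46855627), was at 151, 128 and 121 FPKM in control BM, at 103, 116 and 187 in PHZ BM, and at 177 and 154 in PHZ SP. Both spleen libraries lay above all controls and inside the wide PHZ BM range. Ldha was the only gene of the 9 (1 of 9) that was above control BM in PHZ SP without overlap, as were 15.2% of all genes tested, and 0 of 9 were lower without overlap, as were 13.7%. PHZ SP stood 0.31 above control BM on the log2 scale (SE 0.22, 95% interval -0.18 to 0.80, limma adjusted p = 0.542), and the log2 fold change of PHZ BM was -0.02 (-0.46 to 0.42, limma adjusted p = 0.976).

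Pdk1, a kinase that switches off pyruvate dehydrogenase and so limits pyruvate oxidation (Entrez 228026, chr2:71873215-71903858), had the lower mean in PHZ BM. It was at 8.64, 8.25 and 9.02 FPKM in control BM and at 6.19, 5.45 and 7.61 in PHZ BM, without overlap. The spleen libraries, at 9.89 and 6.42 FPKM, overlapped both groups. For PHZ BM over control BM the log2 fold change was -0.39 (SE 0.22, 95% interval -0.87 to 0.10, limma adjusted p = 0.406).

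Bnip3, a receptor on the mitochondrial surface that marks mitochondria for removal (Entrez 12176, chr7:138890836-138909506), was at 8.99, 3.96 and 5.36 FPKM in control BM, at 5.73, 7.71 and 12.8 in PHZ BM, and at 4.30 and 8.15 in PHZ SP. The groups overlapped, and the control libraries alone differed by more than the group means did. The log2 fold change of PHZ BM over control BM was 0.45 (SE 0.34, 95% interval -0.30 to 1.20, limma adjusted p = 0.553). Bnip3 rested on 81 to 374 reads a library, fewer than Pgk1 or Ldha.

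Vegfa, the growth factor for blood vessels (Entrez 22339, chr17:46016993-46032377), was barely detected. It had 0, 0 and 23 reads in the control BM libraries, 1, 11 and 34 in PHZ BM, and 0 and 4 in PHZ SP, and its highest level was 0.614 FPKM. A count of 0 allows up to 3 reads, and libraries with and without reads occurred in both control BM and PHZ SP. No fold change is given at this depth, where a difference in Vegfa was not detectable.

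Between PHZ SP and PHZ BM, 6 of the 9 tested genes had the lower mean in spleen and 3 the higher. Hk2 was the only gene of the 9 (1 of 9) that was lower in PHZ SP without overlap, as were 17.4% of all genes tested, and 0 of 9 were higher without overlap, also beside 17.4%. The log2 fold change was -0.44 for Pfkl (95% interval -0.93 to 0.04, limma adjusted p = 0.415), -0.36 for Slc2a1 (-1.02 to 0.29, 0.646), -0.42 for Bnip3 (-1.26 to 0.42, 0.698) and 0.55 for Pgk1 (-0.41 to 1.51, 0.635). These sizes depended on single libraries. Without PHZ SP library 1 the log2 fold change was -0.18 for Pfkl and -0.03 for Bnip3, and without PHZ SP library 2 it was -0.71 and -0.81. Without PHZ BM library 3 it was -0.03 for Slc2a1, -0.14 for Bnip3, -0.22 for Hk2 and 1.13 for Pgk1, and without PHZ BM library 1 it was 0.14 for Pgk1. In all 3 comparisons the intervals of Pgk1 and Bnip3 reached past a log2 fold change of 0.8 in at least 1 direction, so a missed threshold does not show that these genes were alike between groups.

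**Figure D2:**
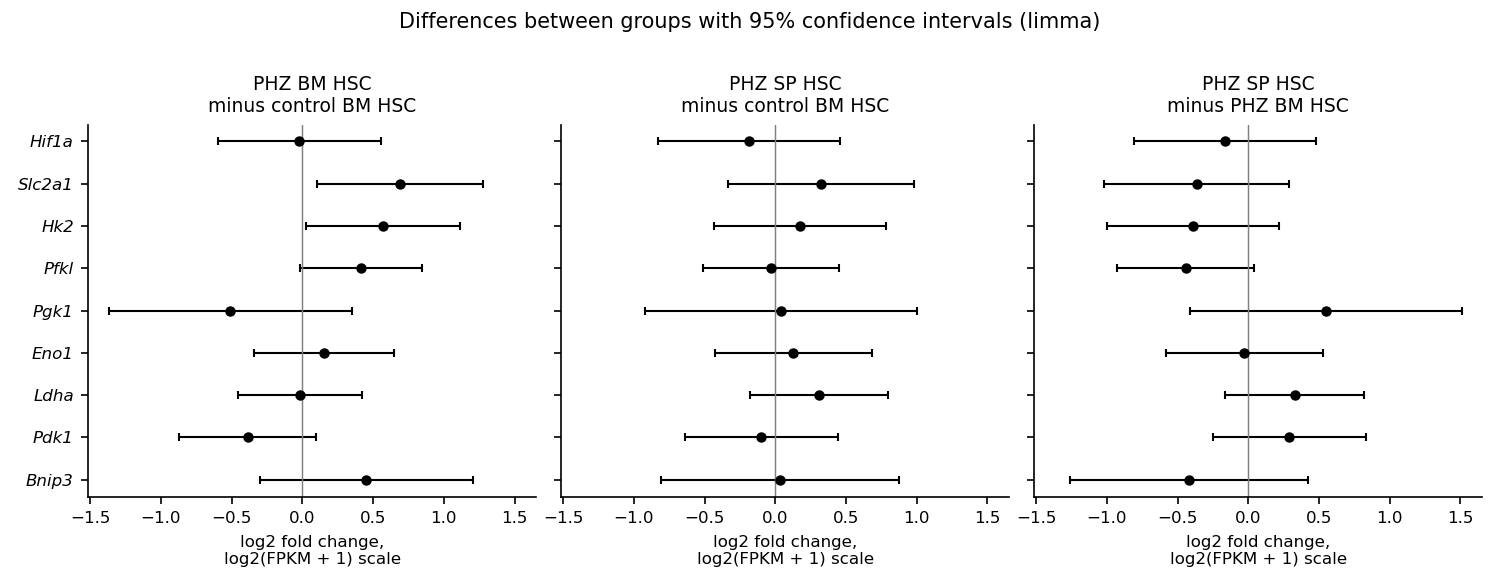
Log2 fold change on the log2(FPKM + 1) scale (points) with its 95% confidence interval (bars) for the 9 tested genes in the 3 comparisons; positive values mean higher in the first-named group, and the vertical line marks 0. The intervals of Slc2a1 (0.10 to 1.27) and Hk2 (0.02 to 1.11) in PHZ BM against control BM were the only 2 that left out 0, and neither gene passed after adjustment over all genes.

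PHZ BM library 3 stood apart for these genes. It was the highest of the 8 libraries for 7 of the 9 tested genes (77.8%), but for 11.4% of all genes tested. All 9 genes lay above the mean of PHZ BM libraries 1 and 2, by a median of 0.77 on the log2 scale, where 50.8% of all genes did, with a median of 0.01. Libraries 1 and 2, each set against a mean that includes library 3, lay below it for 9 of 9 and 8 of 9 genes (medians -0.45 and -0.26). Outside the 10 genes, library 3 was the highest of the 8 for 8 of 24 tested genes of glycolysis, for 9 of 19 on a list of other HIF targets and for 66 of 82 ribosomal protein genes. For the same 24 genes of glycolysis, control BM library 1 was the lowest of the 8 for 12 (50%), but for 22.6% of all genes tested. PHZ BM library 3 was the deepest library at 13201359 reads. A list of 18 proliferation genes summed to 103, 122 and 203 FPKM in PHZ BM libraries 1, 2 and 3 (303 to 467 in control BM, 323 to 343 in PHZ SP), and a list of 9 neutrophil genes to 508, 523 and 1056 FPKM (429 to 737 and 1413 to 1800), with none of these genes at 0 in a whole group. The part of depth and of these lists in the result was not tested. Without library 3 the log2 fold change of PHZ BM over control BM was 0.39 for Hk2, 0.28 for Pfkl, -0.11 for Eno1, -0.27 for Ldha, -0.50 for Pdk1, 0.17 for Bnip3 and -0.12 for Hif1a, with a smallest limma adjusted p of 0.373.

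**Figure D3:**
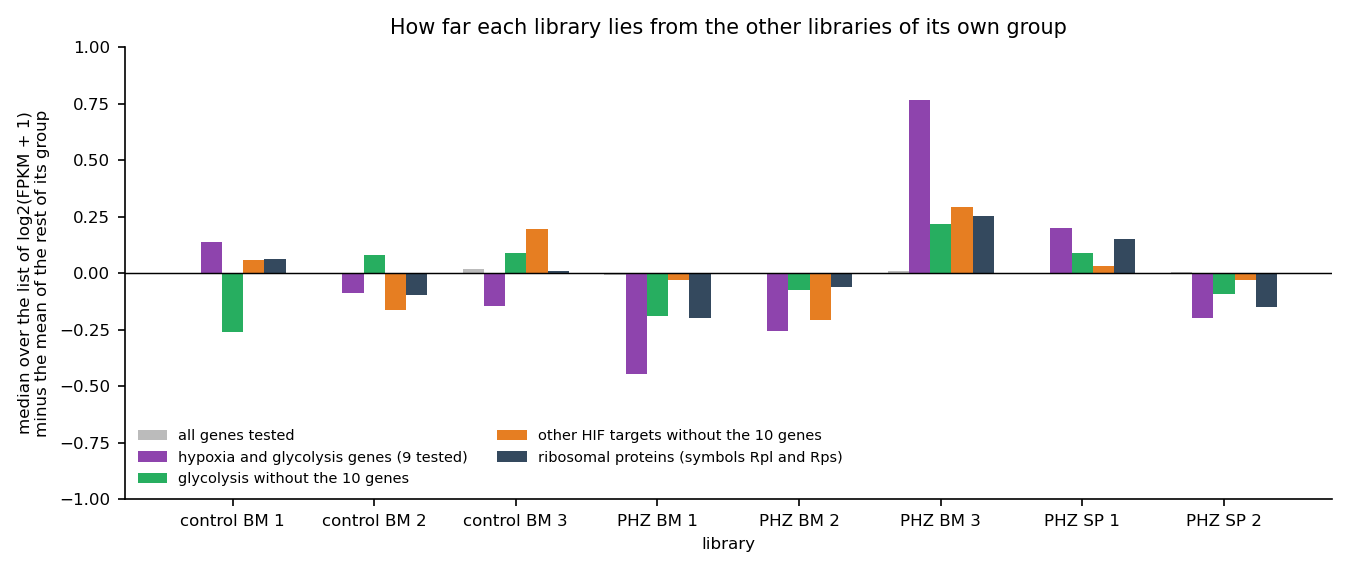
For each of the 8 libraries, the median over the genes of a list of log2(FPKM + 1) minus the mean of the other libraries of the same group (bars, colour by list); the bars of all genes tested lie next to 0. In PHZ BM library 3 the hypoxia and glycolysis genes lay at 0.77, the other genes of glycolysis at 0.22, those of the HIF target list at 0.29 and ribosomal proteins at 0.25.

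Over the 8 libraries, Slc2a1 and Hk2 varied together (Pearson r = 0.94, n = 8), as did Pgk1 and Ldha (r = 0.85), whereas r was -0.12 between Pdk1 and Slc2a1. As no gene of the 10 passed the test, the genes most like Slc2a1, which had the smallest p-value, were looked up among all genes tested. These were the ribosomal protein genes Rps12, Rpl3 and Rps25, each with r = 0.95 over the 8 libraries. The values share libraries, and the highest was PHZ BM library 3 in Slc2a1 and in most ribosomal protein genes.

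The levels of related genes show which member of each family the 10 genes stood for. Of the 3 HIF alpha genes, Hif1a was the highest in every library, with group means of 7.35, 7.29 and 6.74 FPKM in control BM, PHZ BM and PHZ SP. Hif3a was at 1.85 ± 0.542 FPKM (SD, n = 3), 2.77 ± 1.58 (n = 3) and 1.08 ± 0.924 (n = 2) in the same order, with overlap between all groups and its highest value, 4.59 FPKM, in PHZ BM library 3. Epas1, the gene of HIF-2α, was at 0.0989 ± 0.156 FPKM (SD, n = 3) in control BM, 0.178 ± 0.0677 (n = 3) in PHZ BM and 1.35 ± 0.107 (n = 2) in PHZ SP. Both spleen libraries lay above all marrow libraries. Epas1, named here after its values were seen, reached 1 FPKM in those libraries alone, so no test of it is given. As a share of summed FPKM, Hk2 was a minor hexokinase at 12.3% to 17.2% of the family by group mean, where Hk1 held 56.1% to 58.8% and Hk3 the rest. Pfkl held 58.1% to 68.5% of phosphofructokinase and Ldha 68.3% to 74.4% of lactate dehydrogenase. Slc2a1 and Slc2a3 shared glucose transporter mRNA nearly evenly, with Slc2a1 at 49.3% to 58.6%. Pdk1 was again a minor form, at 12.6% to 13.9%, and Pdk3 led at 65.4% to 73.5%. Single libraries ranged more widely than these means, for Hk2 from 7.85% to 23.4% within control BM alone.

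The rest of the pathway was taken from lists that include the 10 genes, and its counts are to be read against the 2.74%, 0.758% and 0.978% of all genes tested that passed in the 3 comparisons. Of 30 tested genes of glycolysis (34 listed), 0 passed in PHZ BM against control BM and 0 in PHZ SP against control BM, while 1 fell in PHZ SP against PHZ BM. The median log2 fold changes of this list were 0.19, 0.30 and -0.05. In the 3 comparisons 24, 23 and 14 of the 30 genes had the higher mean in the first-named group, beside 51.2%, 49.9% and 48.2% of all genes tested. The genes share libraries, and the part of single libraries in these counts was not tested. Of 21 tested genes on the list of other HIF targets (28 listed), 1 rose in PHZ BM over control BM and none passed in the other comparisons, with medians of 0.17, 0.09 and -0.12. None of the 12 tested HIF pathway genes (the subunits, Vhl, the Egln hydroxylases and cofactors) passed in any comparison. Nor did any of 12 genes of pyruvate entry into mitochondria and its use there, 5 mitophagy receptors or 3 tested VEGF family genes. At an unadjusted limma p below 0.05 the counts in the 3 comparisons were 5, 6 and 5 for glycolysis and 6, 3 and 2 for other HIF targets. They were 0, 4 and 3 for the HIF pathway, 1, 1 and 0 for pyruvate entry, 0, 0 and 0 for mitophagy receptors, and 0, 2 and 1 for the VEGF family. Of all genes tested 16.6%, 15.8% and 13.5% reached this p. Both PHZ SP counts include Pklr for glycolysis and Epas1 for the HIF pathway. These 2 genes reached 1 FPKM in PHZ SP alone, so they entered the test only through the group where they are high. The count of 3 for other HIF targets includes Plod2, for which no test is given below.

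**Figure D4:**
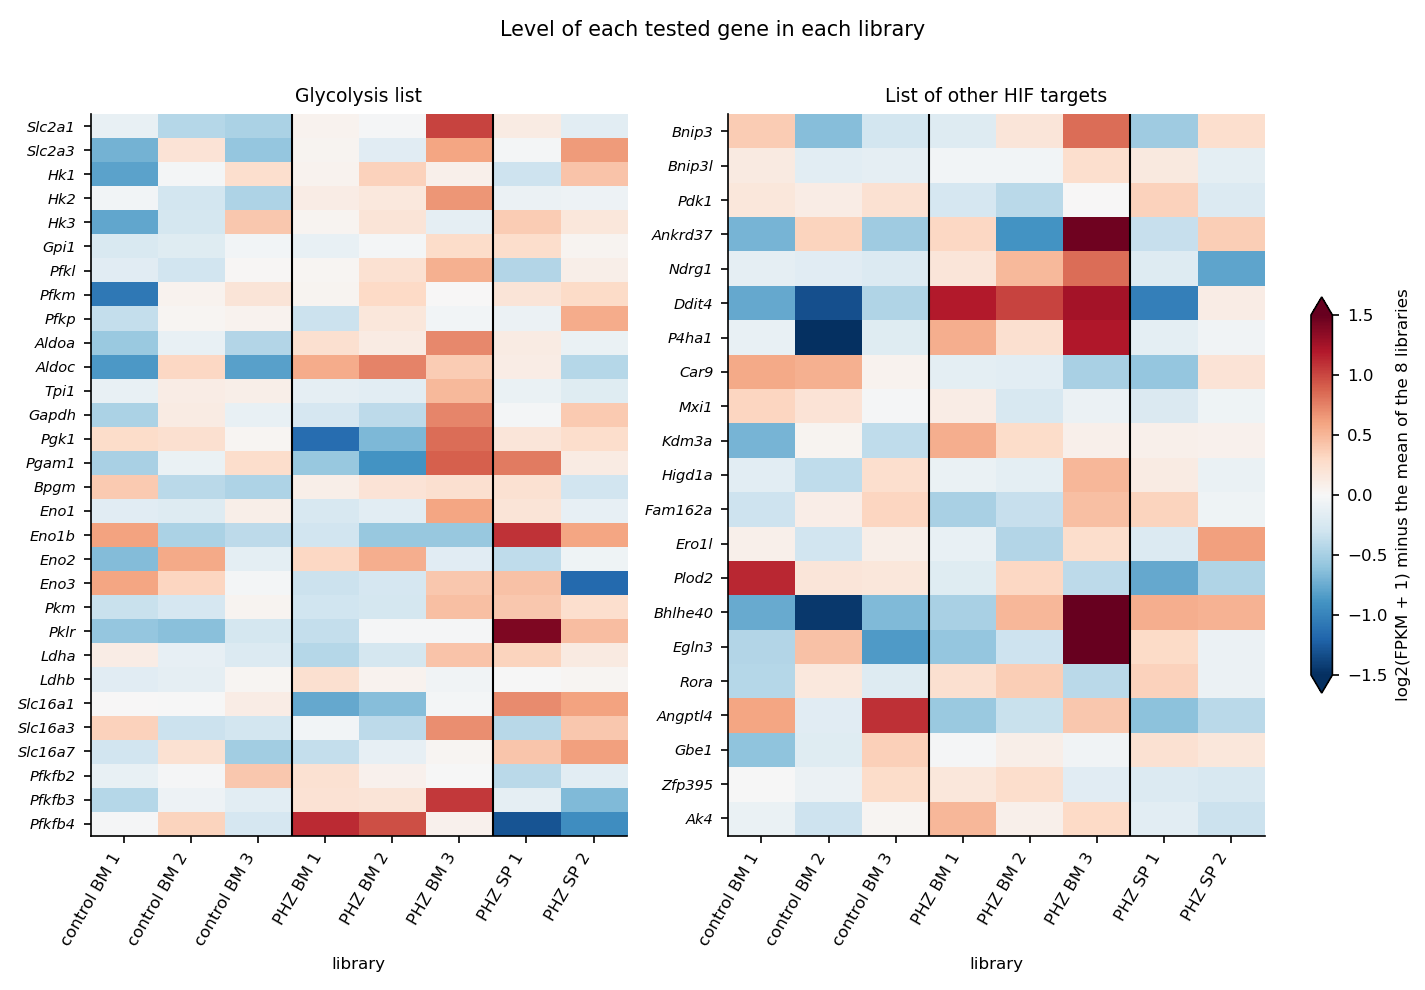
Log2(FPKM + 1) of each tested gene in each library minus its mean over the 8 libraries, for the glycolysis list (left, 30 genes) and the list of other HIF targets (right, 21 genes); colours stop at 1.5 in either direction, and black lines separate control BM, PHZ BM and PHZ SP. Red is densest in PHZ BM library 3, the highest library for 14 of 30 and 10 of 21 genes, and Ddit4 is red in all 3 PHZ BM libraries.

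Ddit4, also called REDD1, is an inhibitor of mTORC1 that is raised by hypoxia, glucocorticoids and other stress (Entrez 74747, chr10:59949675-59951770). It was at 3.96, 2.39 and 5.19 FPKM in control BM, at 18.3, 16.0 and 19.1 in PHZ BM, and at 3.16 and 8.16 in PHZ SP. All PHZ BM libraries lay above all others, library 3 among the rest, and PHZ SP overlapped the controls. Ddit4 rose in PHZ BM over control BM by a log2 fold change of 1.99 (limma adjusted p = 0.00662, SE 0.31), which is 3.98-fold on the log2(FPKM + 1) scale. Against PHZ BM, the log2 fold change of PHZ SP was -1.60 (limma adjusted p = 0.0598, SE 0.35), and over control BM it was 0.39 (-0.37 to 1.16, limma adjusted p = 0.625). A list of 12 immediate early genes, which respond within minutes to stimuli including tissue handling, was also highest in PHZ BM. It summed to 146 to 197 FPKM in control BM, 1027 to 1187 in PHZ BM and 340 to 361 in PHZ SP. In PHZ SP this sum lay above all controls, whereas Ddit4 overlapped them. In this list 10 of 12 genes rose in PHZ BM over control BM, where 2.74% of all genes tested passed in either direction. Atf3 was at 0 in every control library. The part of this list in the rise of Ddit4 was not tested.

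Pfkfb4, a bifunctional enzyme that sets the level of the phosphofructokinase activator fructose 2,6-bisphosphate (Entrez 270198, chr9:108988272-109032236), was the only gene of glycolysis to pass. It was at 2.0, 2.84 and 1.56 FPKM in control BM, at 5.62, 4.92 and 2.18 in PHZ BM, and at 0.241 and 0.588 in PHZ SP. The spleen libraries lay below all marrow libraries, on 11 and 25 reads, and PHZ BM library 3, the highest library for many of its relatives, was the lowest of its group here. Pfkfb4 fell in PHZ SP against PHZ BM by a log2 fold change of -1.83 (limma adjusted p = 0.0404, SE 0.36). The call was lost when any of control BM library 3 (limma adjusted p = 0.0572), PHZ BM library 1 (0.183), PHZ BM library 2 (0.182), PHZ SP library 1 (0.272) or PHZ SP library 2 (0.123) was left out, while the log2 fold change stayed between -2.16 and -1.63. Against control BM the log2 fold change of PHZ SP was -1.14 (limma adjusted p = 0.158).

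Spleen and marrow libraries differed in RNA of markers of other cells, although the lineage antibodies of the sort (against Ter119, Gr-1, B220, CD2, CD3 and CD8) are meant to remove erythroid, granulocytic, B and T cells, and the study checked purity after sorting. A list of 13 erythroid genes summed to 606 to 760 FPKM in control BM, 581 to 724 in PHZ BM and 1516 to 1645 in PHZ SP. Of these, 8 of 13 rose in PHZ SP over control BM (1 of them, Ermap, reached 1 FPKM in PHZ SP alone). In that comparison 0.758% of all genes tested passed in either direction. Of the 9 neutrophil genes, whose sums are given above, 1 rose in PHZ SP over control BM, beside the same 0.758%. A list of 9 macrophage genes summed to 253 to 291, 203 to 260 and 349 to 352 FPKM. Lists of T and NK cell, B cell and megakaryocyte genes stayed at or below 142 FPKM in every library, and Cd3d and Cd8a were at 0 in all control libraries. Klrb1c, the gene of the NK cell receptor NK1.1, named here after its values were seen, was at 0.555 to 1.40 FPKM in control BM, 2.31 to 3.07 in PHZ BM and 14.7 to 18.4 in PHZ SP. It was 1 of 2 tested genes of its list and rose in PHZ SP over control BM (log2 fold change 3.19, limma adjusted p = 0.000866) and over PHZ BM (2.30, limma adjusted p = 0.00477). The other tested gene, Nkg7, a granule protein of NK and T cells, was at 19.1 to 59.7 FPKM in control BM, 27.7 to 45.7 in PHZ BM and 26.9 to 27.9 in PHZ SP, with overlap and no call (log2 fold change of PHZ SP over control BM -0.26, limma adjusted p = 0.775), and the NK cell receptor gene Ncr1 had 0 to 2 reads in every library. None of the 3 tested B cell genes passed, while 3 of 3 were higher in PHZ SP than in PHZ BM without overlap, as were 17.4% of all genes tested. In PHZ BM against control BM 2 of 6 megakaryocyte genes (Pf4 and Ppbp) fell, where 2.74% of all genes tested passed in either direction. The part of such cells in the values of the hypoxia and glycolysis genes of PHZ SP was not tested.

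**Figure D5:**
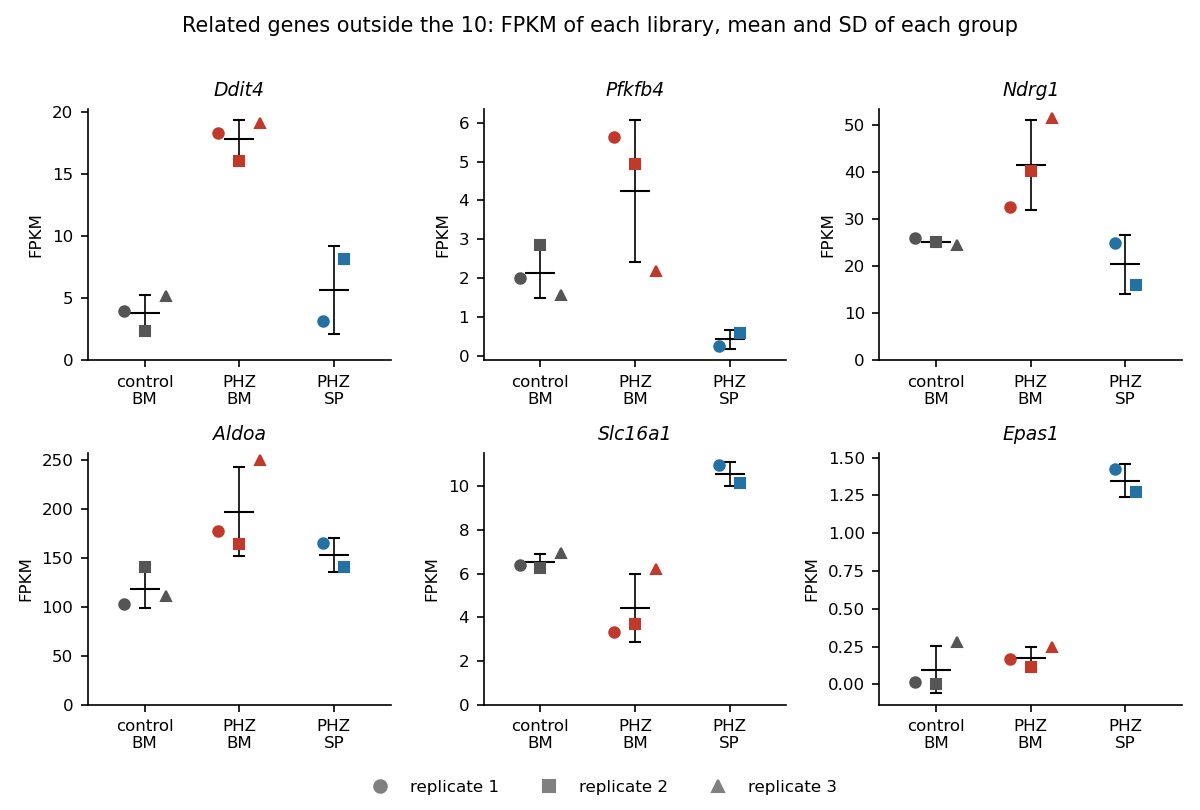
FPKM of 6 related genes in each library (points, shape by replicate number) with group mean and SD; each panel has its own linear axis. Ddit4 and Pfkfb4 passed the test in a comparison, whereas Ndrg1, Aldoa and Slc16a1 did not, no test is given for Epas1, and these 4 genes were picked after their values were seen; all 3 PHZ BM libraries of Ddit4 lie at 16.0 FPKM or above and all other libraries at 8.16 or below.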

How the data were processed

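RNA of sorted HSCs was amplified with SMART-Seq2 and made into Nextera XT libraries, and the authors mapped reads with STAR to build mm10 and compared groups with DESeq2. The gene counter, annotation release and use of strand are not given in the sources used here. The authors deposited FPKM values, 1 table for each group with Entrez gene IDs as keys, whose marrow columns are named WBM and were matched to the BM HSC titles by table and number. The deposited tables of their DESeq2 results for PHZ SP against the marrow groups (fold changes and p-values) were not used.

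The control table had been scaled together with PHZ SP and the PHZ tables with each other, so median-of-ratios factors over the 8 libraries together replaced them, which moved a library by at most 1.05%. Reads were worked back from the steps between low FPKM values. All 110442 values above 0 gave whole reads, within 0.001 read, and the 1324 genes seen in a single library have reads at their minimum. Such reads carry no molecular identifiers, so limits in reads cover counting error only.

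Genes with at least 1 FPKM in at least 2 libraries (11347) were tested by limma 3.58.1 in R 4.3.3 on log2(FPKM + 1), a scale that understates changes of low genes, with trend and robust options, group as the factor and all 8 libraries. The fit was checked on simulated data. The 10 genes and the lists were chosen with earlier results of these data known. Beyond the 10, the text names list genes that passed the threshold with groups that did not overlap, at most 5 per list and comparison, and the 3 genes most correlated with the most changed of the 10. Epas1, Hif3a, markers of other cells and the genes in the closing section were picked after their values were seen. Coordinates, promoters and symbols are from RefSeq (GRCm38), where Entrez IDs matched all 10 genes. Alternatives were pseudocount, filter, scaling (as deposited, or trimmed mean of M values, TMM), samples in the fit, voom, a replicate block and each library left out. Python 3.11.15 was used for tables and figures.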

Additional observations from a re-analysis of the deposited data

How the results depend on the processing

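The count of 0 passing genes among the 9 tested held in all 3 comparisons under another pseudocount (0.1), no filter, a filter of 10 reads in every library, the deposited scaling, TMM factors, only the 2 groups compared, voom and a replicate block. With 1 library left out it ranged from 0 to 1 in PHZ BM against control BM and in PHZ SP against PHZ BM (Pgk1, without PHZ BM library 3) and stayed at 0 in PHZ SP against control BM. Of 432 re-computed values for these genes, 409 kept direction and side of the threshold, 2 newly passed and 21 turned direction, all 21 of them not passing. The turns were Ldha under voom (PHZ BM over control BM, 0.0067), Pfkl and Eno1 under the replicate block (values with the pairing) and, with a library left out, values within -0.27 to 0.15 for Ldha, -0.12 to 0.11 for Hif1a and -0.11 to 0.31 for Eno1 in that comparison. In PHZ SP over control BM the ranges were -0.66 to 0.29 for Hif1a, -0.30 to 0.23 for Pfkl, -0.036 to 0.084 for Pgk1, -0.034 to 0.29 for Eno1, -0.38 to 0.18 for Pdk1 and -0.36 to 0.43 for Bnip3, and in PHZ SP over PHZ BM -0.64 to 0.31 for Hif1a and -0.19 to 0.24 for Eno1. Ddit4, outside the 9, turned in PHZ SP over control BM (-0.18 to 0.96 with a library left out). Its rise in PHZ BM passed in all 16 alternatives, with limma adjusted p from 0.00354 to 0.0345. The difference of Ddit4 between PHZ SP and PHZ BM newly passed with a 10-read filter (0.0433) and without control BM library 2 (0.0487), and with a library left out it ranged from -2.17 to -1.03 (adjusted p 0.361 at -1.03, without PHZ SP library 1). The call of Pfkfb4 was also lost with no filter (0.0852) and under voom (log2 fold change -3.29, adjusted p 0.180).

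Counts over all genes moved more. The 311 genes of PHZ BM against control BM became 205 with no filter and 115 to 306 with a library left out (182 without control BM library 1, 119 and 115 without PHZ BM libraries 1 and 2). The 86 of PHZ SP against control BM became 39 with pseudocount 0.1, 46 with no filter, 42 in the fit of 2 groups and 14 to 83 with a library left out (43 without control BM library 2, 44 and 33 without PHZ BM libraries 1 and 2, 14 and 27 without PHZ SP libraries 1 and 2). The 111 of PHZ SP against PHZ BM became 62 with no filter, 65 under voom and 6 to 146 with a library left out (20 and 30 without PHZ BM libraries 1 and 2, 7 and 6 without PHZ SP libraries 1 and 2). With a PHZ SP library left out, the remaining one is assumed to vary like the other groups. The causes were not tested.

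The titles share replicate numbers, and whether same-numbered libraries came from the same mice is not known. Deviations of same-numbered libraries from their group means correlated by -0.008 to 0.060. Those of differently numbered libraries correlated by -0.064 to 0.069. With 2 or 3 libraries in a group this measure cannot decide whether the numbers pair the samples. With the replicate block 294, 73 and 112 genes passed in the 3 comparisons and 0 of the 9 in each, and the direction turned for Pfkl in PHZ SP over control BM (0.078) and for Eno1 in PHZ SP over PHZ BM (0.15). With 3, 3 and 2 libraries and Rn45s taking nearly as many reads as all other genes, changes below about the intervals given could not be seen, and groups of this size were too small to look for outlying libraries by a test.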

Other observations

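Several related genes had an adjusted p near the threshold or groups that did not overlap, and were picked after their values were seen. Aldoa, the main aldolase, was at 118 ± 19.8 FPKM (SD, n = 3) in control BM, 197 ± 45.8 (n = 3) in PHZ BM and 153 ± 17.5 (n = 2) in PHZ SP, and the log2 fold change of PHZ BM over control BM was 0.72 (limma adjusted p = 0.0569, SE 0.18). Ndrg1, a stress-responsive gene often used as a hypoxia marker, was at 25.2 ± 0.689, 41.5 ± 9.58 and 20.4 ± 6.26 FPKM in the same order, with a log2 fold change of 0.67 for PHZ BM over control BM (limma adjusted p = 0.123) and -0.99 for PHZ SP against PHZ BM (limma adjusted p = 0.0787).

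Slc16a1, the gene of the lactate and pyruvate transporter MCT1, had no overlap between any pair of groups. It was at 6.53 ± 0.350 FPKM (SD, n = 3) in control BM, 4.41 ± 1.57 (n = 3) in PHZ BM and 10.6 ± 0.558 (n = 2) in PHZ SP, and the log2 fold change of PHZ SP over PHZ BM was 1.13 (limma adjusted p = 0.0752, SE 0.26). Pklr, the pyruvate kinase of liver and red cells, rested on 0 to 12 reads in the control BM libraries and on 38 and 111 in PHZ SP. It reached 1 FPKM in the PHZ SP libraries alone, so no test of it is given. Bhlhe40, a transcriptional repressor that hypoxia can raise, was at 0.744 to 1.997 FPKM in control BM and at 5.82 and 5.96 in PHZ SP. The PHZ BM libraries spread widely, at 2.39, 5.69 and 15.5 FPKM, and the lowest of them lay just above the highest control. The log2 fold change over control BM was 1.56 for PHZ BM (limma adjusted p = 0.113) and 1.49 for PHZ SP (limma adjusted p = 0.195). These 2 comparisons share the control libraries, and the size for PHZ BM rests in large part on its highest library.

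Other HIF targets differed without overlap in both directions. In PHZ BM over control BM, P4ha1 (log2 fold change 1.26, limma adjusted p = 0.114) and Kdm3a (0.64, limma adjusted p = 0.230) were higher. Car9, Plod2 and Angptl4 were lower in a PHZ group than in control BM. Car9, a carbonic anhydrase of the cell surface, was at 8.97 ± 1.87 FPKM (SD, n = 3) in control BM and 5.31 ± 0.820 (n = 3) in PHZ BM (log2 fold change -0.65, limma adjusted p = 0.234). Plod2, a collagen lysyl hydroxylase, was at 2.35 ± 1.38 FPKM in control BM and 0.482 ± 0.228 (n = 2) in PHZ SP. It reached 1 FPKM in all 3 control BM libraries and in 1 other library, so no test of it is given. For Angptl4, a secreted inhibitor of lipoprotein lipase, the control BM libraries lay at 1.69 to 5.45 FPKM and the PHZ SP libraries at 0.960 and 1.28 (log2 fold change -1.02, limma adjusted p = 0.248). Of the 21 tested genes on the list, 6, 2 and 1 were higher and 2, 4 and 6 lower without overlap in PHZ BM over control BM, PHZ SP over control BM and PHZ SP over PHZ BM, where 12.3%, 15.2% and 17.4% of all genes tested were higher and 11.7%, 13.7% and 17.4% lower.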
